A study of Mus musculus with 24 samples.

Results

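The HoxA cluster is a run of homeobox genes on mouse chromosome 6, and 9 of its genes were followed across 8 groups of libraries: Hoxa2, Hoxa3, Hoxa4, Hoxa5, Hoxa6, Hoxa7, Hoxa9, Hoxa10 and Hoxa11. They were taken by symbol from the 22609 gene symbols counted in each library, and each of the 9 had an entry in all 24 libraries. They are not every gene of the cluster, and the others are not analysed here. The cells were E14TG2a mouse embryonic stem cells (mESCs), a line from a 129/Ola blastocyst, cultured without feeder cells in serum with leukaemia inhibitory factor (LIF), which holds mESCs in the pluripotent state. Poly-A RNA was sequenced in 3 libraries a group. The 5 mESC groups were untransfected cells and cells stably carrying a short hairpin: shNMC, which targets no mammalian gene, shMed12, shCdk8 or shRing1b. The 3 differentiation groups were shNMC, shMed12 and shCdk8 cells after 24 h in 1e-06 M all-trans retinoic acid (RA) with LIF withdrawn, so RA and the loss of LIF cannot be told apart. There was no RA group for shRing1b among the libraries analysed. How many hairpins or clones stand for each target is not in the labels, nor is it stated whether the libraries of a group came from separate cultures, so the p-values measure the spread between these libraries, which may be technical.

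Hox genes encode homeodomain transcription factors that tell cells where they lie along the head-to-tail axis. They are read out in the order in which they sit: genes at the 3′ end of a cluster, here Hoxa2 and Hoxa3, are used earlier and further forward in the embryo than genes at the 5′ end, here Hoxa9, Hoxa10 and Hoxa11. In mESCs the clusters are kept silent by the Polycomb complexes PRC1 and PRC2, and Ring1b, the product of Rnf2, is the ubiquitin ligase of PRC1. RA acts through nuclear receptors and opens the clusters from the 3′ end. Med12 and Cdk8 are subunits of the kinase module of Mediator, the complex that links transcription factors to RNA polymerase II.

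The libraries fell into sets that differed in depth and mapping. The 6 untransfected and shRing1b libraries held 27.4 to 34.1 M gene counts, and the other 18 held 37.8 to 57.3 M. Multiply aligned reads were 20.02% to 21.7% of the entries of the 6 libraries and 44.1% to 49.1% of those of the 18. A library with 3 reads of a gene stood at 0.0464 to 0.120 CPM, its read count scaled to library size, and many mESC values of the HoxA genes lay near that limit. The fit over all genes kept 9 of the 9 members, and 7 of the 9 when the mESC libraries were filtered alone, without Hoxa2 and Hoxa6. Med12 ranged from 35.2 to 61.2 CPM in the 6 shMed12 libraries and from 94.1 to 144 CPM in the 6 shNMC libraries. Cdk8 ranged from 8.21 to 15.2 CPM in the 6 shCdk8 libraries and from 42.6 to 56.1 CPM in the 6 shNMC libraries. Rnf2 stood at 52.4 and 64.2 CPM in shRing1b replicates 1 and 2 but at 207 CPM in replicate 3. Untransfected cells had 221, 303 and 262 CPM. The library labelled shRing1b replicate 3 thus lay a little below the untransfected range, at 0.793 of the untransfected mean, and showed little loss of Rnf2. Pluripotency markers (10 genes) summed to 3546 to 6236 CPM over all mESC libraries and to 1622 to 2915 CPM after RA, and none was at 0 in a whole group.

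The genomic setting of the members is shown by 4 stretches of sequence taken 5′ of their starts. RefSeq start sites (build GRCm38.p6, not the mm9 build named for the deposited counts) were available for 8 of the 9 members, Hoxa4 having no entry, and gave 9 windows since Hoxa10 has 2. All members lie on the minus strand of chromosome 6, and each window is the 250 bases before the start, 5′ to 3′ in the direction of transcription. Hoxa5 is shown because it reached the highest level per length after RA, and Hoxa9 and Hoxa11 because their profiles over the groups were the least like those of the other members. In these 3 sequences capitals mark CpG dinucleotides.
Hoxa5 (chr6:52204588-52204837, minus strand): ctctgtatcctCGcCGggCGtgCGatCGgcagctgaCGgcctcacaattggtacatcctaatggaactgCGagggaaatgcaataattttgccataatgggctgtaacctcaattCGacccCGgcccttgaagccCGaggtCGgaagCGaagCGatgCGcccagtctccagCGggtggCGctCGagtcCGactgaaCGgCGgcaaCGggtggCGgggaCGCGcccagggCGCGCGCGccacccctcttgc
Hoxa9 (chr6:52227371-52227620, minus strand): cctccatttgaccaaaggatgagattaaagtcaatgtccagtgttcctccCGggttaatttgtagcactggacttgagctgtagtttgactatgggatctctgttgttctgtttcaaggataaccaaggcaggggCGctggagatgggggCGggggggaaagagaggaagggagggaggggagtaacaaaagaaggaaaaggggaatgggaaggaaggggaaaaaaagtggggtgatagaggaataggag
Hoxa11 (chr6:52245811-52246060, minus strand): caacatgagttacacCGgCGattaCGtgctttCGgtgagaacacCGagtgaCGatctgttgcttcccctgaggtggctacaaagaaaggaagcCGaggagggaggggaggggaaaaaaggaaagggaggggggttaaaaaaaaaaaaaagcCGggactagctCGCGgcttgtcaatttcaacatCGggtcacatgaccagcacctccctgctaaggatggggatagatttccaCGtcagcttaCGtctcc
The Hoxa5 window held 28 CpG, more than 92.4% of 32851 windows of the same length before mouse starts, whose median was 6. The Hoxa9 window held 3 and the Hoxa11 window 13. Hoxa6 (24), Hoxa3 (18) and the second Hoxa10 window (20) were also CpG-rich, while Hoxa2 (6), Hoxa7 (7) and the first Hoxa10 window (7) lay near the median. The Hoxa3 window (chr6:52213068-52213317) lay between those of Hoxa6 and Hoxa7, out of cluster order. It thus stands before a long Hoxa3 transcript, and no Hoxa3 window in cluster order was available.

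The windows were searched on both strands for motifs of the factors that act on Hox clusters. The receptor core motif AGGTCA, which 14% of the 32851 windows held, was in 0 of the 9 member windows, and its variant AGTTCA (11.8% of windows) was also in 0. The direct repeats DR5 and DR2, pairs of such motifs with a spacer of 5 or 2 bases, were in 0 of the 9 and each form in at most 0.0213% of all windows. The Cdx motif TTTATG (10.8% of windows) was found before Hoxa7 alone, at 236 and 173 bases before its start. CCAAT (33.8% of windows) was in 4 of the 9, those of Hoxa2, Hoxa5, Hoxa6 and 1 of the Hoxa10 windows. These matches are a description, and a motif not found says only that its letters are not in the window. The Hoxa7 window is shown with both Cdx motifs in capitals, because Cdx2 was among the genes that differed with shMed12. With shMed12 after RA Cdx2 was higher (log2 difference 4.27) and Hoxa7 lower (-1.34), and a link between them was not tested.
Hoxa7 (chr6:52218574-52218823, minus strand): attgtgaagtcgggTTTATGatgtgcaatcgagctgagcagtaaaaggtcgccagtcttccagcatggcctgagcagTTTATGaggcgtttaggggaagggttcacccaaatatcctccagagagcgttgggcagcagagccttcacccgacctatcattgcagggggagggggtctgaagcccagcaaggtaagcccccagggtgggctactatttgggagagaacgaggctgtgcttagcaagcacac

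Under RA all 9 measured genes of the cluster came on, with the largest change at Hoxa5 and the smallest at Hoxa11. Together the 9 genes took 1.87, 2.16 and 2.38 CPM in the shNMC mESC libraries and 84.3, 79.6 and 59.8 CPM in the shNMC libraries after RA. All 9 rose, against 27.3% of the 16280 genes tested that were called higher (edgeR quasi-likelihood test, Benjamini-Hochberg adjusted p under 0.05, the rule for every call here). Hoxa2 and Hoxa6 did not pass the filter on mESC libraries alone and entered the test through the RA groups, where they were high. Their rise is thus not independent of the filter, here and in the other hairpin lines. The median log2 change of the members was 4.69, against 0.0218 over all genes tested.

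**Figure D1:**
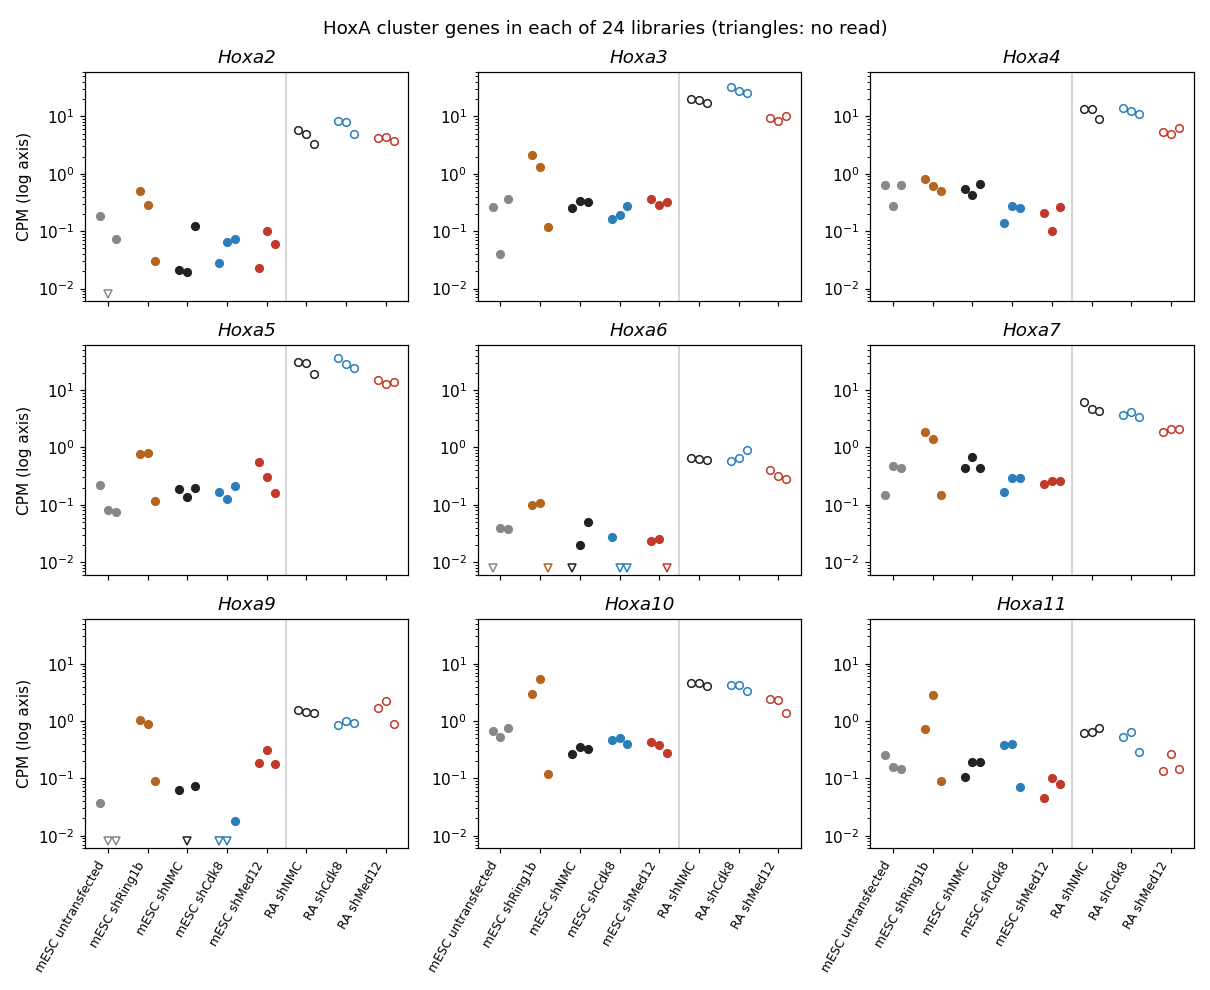
CPM of each HoxA gene in each of the 24 libraries, on a log axis, with 1 panel a gene. Filled points are mESC libraries, open points are libraries after RA, and triangles at the foot mark libraries with no read; in every panel the shNMC points after RA lie above the shNMC mESC points, while the shRing1b points split.

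At the 3′ end, Hoxa2, which patterns the hindbrain and the second branchial arch, stood at 0.0208, 0.0197 and 0.123 CPM in shNMC mESCs and at 5.86, 5.01 and 3.37 CPM after RA. The groups did not overlap, and the log2 change was 6.48 (SE 0.58, edgeR adjusted p = 1.15e-08). Hoxa3, needed for the thymus and parathyroid, went from 0.249, 0.334 and 0.320 CPM to 20.4, 19.7 and 17.4 CPM. This was a log2 change of 5.98 (SE 0.47, edgeR adjusted p = 1.79e-09), and the 3 RA libraries lay close together. Hoxa4, a gene of the neck vertebrae, stood at 0.540, 0.433 and 0.664 CPM in shNMC mESCs. It reached 13.6, 13.3 and 8.86 CPM after RA, with replicate 3 the lowest (log2 change 4.46, SE 0.27, edgeR adjusted p = 5.94e-11). Hoxa5, which acts in the lung and the upper spine, went from 0.187, 0.138 and 0.197 CPM to 30.7, 29.5 and 19.1 CPM. Its log2 change of 7.24 (SE 0.42, edgeR adjusted p = 1.65e-11) was the highest of the 9.

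From Hoxa6 to Hoxa11 the log2 changes ran from 2.0 to 4.98, against 4.46 to 7.24 from Hoxa2 to Hoxa5. Hoxa6, the neighbour of Hoxa5, had 3 reads over the shNMC mESC libraries (0, 0.0197 and 0.0492 CPM) and 104 after RA (0.643, 0.639 and 0.596 CPM). The ratio of these counts scaled to library size was 29.2, with a 95% counting interval of 9.71 to 144. Hoxa7, a gene of the trunk, went from 0.436, 0.669 and 0.442 CPM to 6.26, 4.74 and 4.25 CPM (log2 change 3.28, SE 0.44, edgeR adjusted p = 2.45e-06). Both groups were tight relative to the gap between them. Hoxa9, a regulator of blood stem cells and a driver of leukaemia, stood at 0.0623, 0 and 0.0737 CPM and then at 1.55, 1.42 and 1.36 CPM. The log2 change was 4.98 (SE 0.67, edgeR adjusted p = 2.94e-06). Hoxa10, a gene of the uterus and hindlimb, went from 0.270, 0.354 and 0.320 CPM to 4.68, 4.56 and 4.13 CPM (log2 change 3.81, SE 0.61, edgeR adjusted p = 2.44e-05). Hoxa11, which acts in the forelimb and uterus, went from 0.104, 0.197 and 0.197 CPM to 0.626, 0.639 and 0.745 CPM. Its groups did not overlap, but its log2 change of 2.0 was the smallest (SE 0.71, edgeR adjusted p = 0.0232), and it did not pass without mESC shNMC replicate 1 (adjusted p = 0.083).

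Per length the levels after RA had another order. With CPM divided by the kilobases of exon in GENCODE M21, shNMC cells after RA held Hoxa5 at 14.1 ± 3.41 CPM per kb (SD, n = 3), and Hoxa4 and Hoxa3 at 7.48 ± 1.66 and 7.41 ± 0.60. Hoxa2 (2.67 ± 0.71) and Hoxa7 (2.04 ± 0.42) followed, then Hoxa10 (1.42 ± 0.092) and Hoxa6 (0.716 ± 0.030). Hoxa9 (0.448 ± 0.031) and Hoxa11 (0.293 ± 0.029) were the lowest. Hoxa4 and Hoxa3 did not differ beyond their spread, nor did Hoxa2 and Hoxa7. In the annotation the long Hoxa3 transcripts run across Hoxa4, Hoxa5 and Hoxa6, and how the counting treated reads in overlapping genes is not given in the sources used here, so the levels of these 4 genes are less certain.

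The changes with RA were also set against position in the 3 hairpin lines. The rank correlation between position, from Hoxa2 to Hoxa11, and the log2 change with RA was -0.72 in shNMC, -0.95 in shMed12 and -0.73 in shCdk8 cells, each over the same 9 genes as a description. In shMed12 cells 8 of the 9 rose with RA (19.6% of all genes were called higher), with a median log2 change of 4.24 against 0.0276 over all genes. In shCdk8 cells 8 of the 9 rose (26.7% of all genes), with a median of 6.15 against 0.0125. In both lines the gene that did not pass was Hoxa11, at a log2 change of 1.24 (SE 0.96, edgeR adjusted p = 0.325) with shMed12 and 0.82 (SE 0.68, edgeR adjusted p = 0.322) with shCdk8. With the replicate number as a block, which pairs the shCdk8 libraries, the latter passed (0.81, edgeR adjusted p = 0.0336). Changes of Hoxa6 and Hoxa9 rest on few mESC reads. Hoxa6 had 2 reads in shMed12 mESCs and 1 in shCdk8 mESCs, with ratios of 22.2 (95% counting interval 5.85 to 188) and 97.5 (17.2 to 3883), and Hoxa9 had 1 read in shCdk8 mESCs, with a ratio of 131 (23.1 to 5187).

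**Figure D2:**
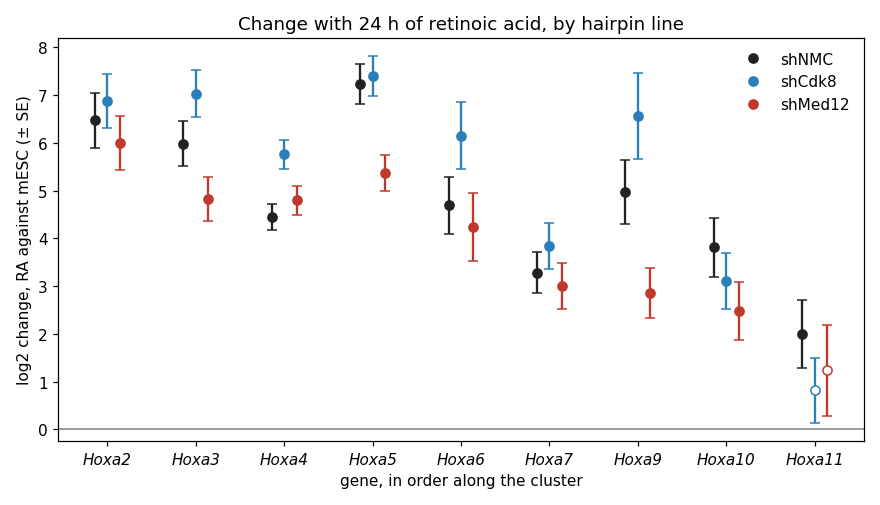
Log2 change of each HoxA gene after 24 h of RA against mESCs of the same hairpin line (± SE), with genes in order along the cluster. Filled points passed the test and open points did not; the values run from 7.24 at Hoxa5 to 2.0 at Hoxa11 in shNMC cells, and Hoxa11 is open in both other lines.

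With shMed12, 5 of the 9 HoxA genes were lower after RA than with shNMC, while Hoxa2 and Hoxa9 overlapped their control levels. The 9 genes together took 40.5, 37.8 and 39.1 CPM in shMed12 cells after RA, below each of the 3 shNMC libraries. Against shNMC after RA, 5 of the 9 fell and 0 rose, where 20.6% of all genes were called lower and 21.3% higher. The median log2 difference was -1.04 over the members and -0.0038 over all genes tested.

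The falls lay at Hoxa3, Hoxa4, Hoxa5, Hoxa7 and Hoxa11. Hoxa4 stood at 5.32, 4.87 and 6.33 CPM with shMed12, below the 8.86 to 13.6 CPM of the shNMC libraries. The log2 difference was -1.11 (SE 0.22, edgeR adjusted p = 4.21e-04). Hoxa3, at 9.24, 8.36 and 10.3 CPM, also lay below all 3 shNMC libraries (-1.04, SE 0.34, edgeR adjusted p = 0.0183, DESeq2 adjusted p = 0.0827). Hoxa5 stood at 15.3, 12.96 and 13.8 CPM, under the lowest shNMC library at 19.1 (-0.91, SE 0.28, edgeR adjusted p = 0.0109). Hoxa7 stood at 1.83, 2.07 and 2.13 CPM, less than 4.25 CPM in the lowest control (-1.34, SE 0.38, edgeR adjusted p = 0.0077). In each of these 4 genes the groups did not overlap, a description since the share of all genes without overlap was not counted. Hoxa3 did not pass without shMed12 replicate 2 or shNMC replicate 1 (adjusted p = 0.0718 and 0.0538), and Hoxa5 not without the latter (adjusted p = 0.0544). Hoxa11 had 30 reads with shMed12 (0.135, 0.267 and 0.143 CPM) against 111 with shNMC, a log2 difference of -1.86 (SE 0.68, edgeR adjusted p = 0.0332). That call did not pass when any of 5 of the 6 libraries was left out, the exception being shMed12 replicate 2 (adjusted p up to 0.0975).

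The other 4 members did not pass. Hoxa6 (0.405, 0.321 and 0.287 CPM) and Hoxa10 (2.45, 2.32 and 1.40 CPM) lay below all 3 shNMC libraries, with log2 differences of -0.89 (SE 0.38, edgeR adjusted p = 0.0624) and -1.12 (SE 0.50, edgeR adjusted p = 0.0801). Both passed in the fit without the 3 shRing1b libraries, with adjusted p of 0.0161 and 2.42e-05. That fit, which takes no part of its error estimate from them, called 7 of the 9 lower, and 4125 of all genes lower against 3351. Hoxa2 stood at 4.19, 4.31 and 3.73 CPM, within the shNMC range (-0.22, 95% interval -0.97 to 0.54). Hoxa9 stood at 1.68, 2.28 and 0.897 CPM, on both sides of the shNMC libraries (0.16, 95% interval -0.74 to 1.06). Without RA shNMC replicate 1 the count of members called fell to 2.

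**Figure D3:**
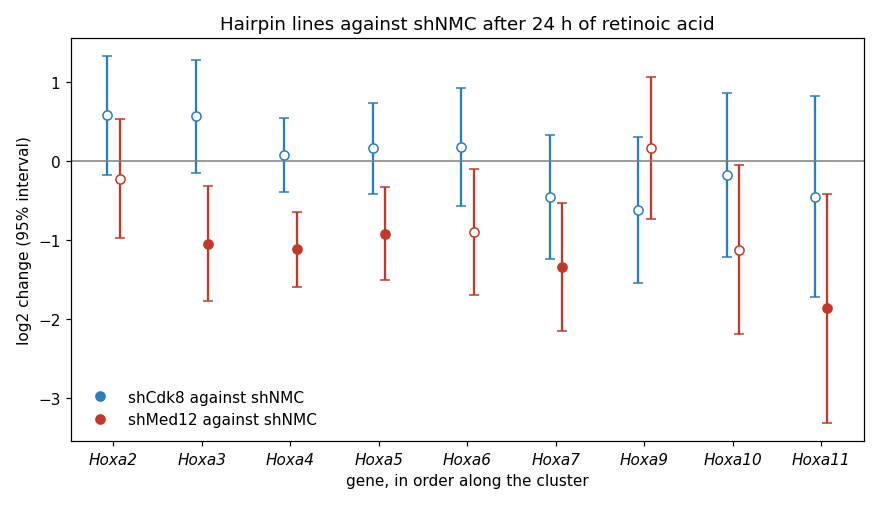
Log2 difference of each HoxA gene between a hairpin line and shNMC after RA, with 95% intervals and genes in order along the cluster. Filled points passed the test, as 5 of the shMed12 values and 0 of the shCdk8 values did; the shMed12 values lie below 0 except at Hoxa9.

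With shCdk8 no member passed the test after RA in the fit of all 24 libraries, which had no block for the replicate numbers. Other fits, 1 of them with that block, called 1 to 5. The 9 genes together took 101, 87.7 and 74.3 CPM in shCdk8 cells after RA. Against shNMC after RA 0 of the 9 were called by edgeR, where 7.73% of all genes were called in either direction, and 0 had an unadjusted p under 0.05 or passed in DESeq2. Hoxa2 stood at 8.45, 7.97 and 4.88 CPM (log2 difference 0.58, 95% interval -0.17 to 1.33) and Hoxa3 at 32.7, 27.4 and 25.4 CPM (0.57, 95% interval -0.15 to 1.29). The Hoxa3 libraries all lay above those of shNMC, while those of Hoxa2 overlapped. At the other end Hoxa9 stood at 0.860, 1.02 and 0.941 CPM, below all 3 shNMC libraries (-0.62, 95% interval -1.54 to 0.30). Hoxa7, at 3.62, 4.14 and 3.39 CPM, also lay below them (-0.45, 95% interval -1.24 to 0.34). Hoxa4, Hoxa5 and Hoxa6 had log2 differences of 0.08 to 0.18, and Hoxa10 and Hoxa11 of -0.18 and -0.45, all in overlapping groups. The replicate numbers paired these libraries, and the blocked fit called 5 of the 9: Hoxa2 (0.58, edgeR adjusted p = 1.10e-04), Hoxa3 (0.56, adjusted p = 5.46e-06) and Hoxa5 (0.17, adjusted p = 0.0466) higher, Hoxa7 (-0.44, adjusted p = 0.0077) and Hoxa9 (-0.62, adjusted p = 0.0059) lower. That fit called 7910 of all genes tested. The same libraries without the block gave 2744 genes and 2 members, Hoxa3 (0.57, edgeR adjusted p = 0.0114) and Hoxa9 (-0.62, adjusted p = 0.0313), and the fit of all 24 libraries gave 1259 genes. The fit without the shRing1b libraries called Hoxa3 alone (0.57, adjusted p = 0.0096), and 2885 genes.

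The lines were also set against each other after RA. With shMed12, 4 of the 9 were lower than with shCdk8 (20.1% of all genes): Hoxa3 (log2 difference -1.61, SE 0.35, edgeR adjusted p = 8.11e-04), Hoxa4 (-1.19, SE 0.23, adjusted p = 2.32e-04), Hoxa5 (-1.08, SE 0.28, adjusted p = 0.0036) and Hoxa6 (-1.07, SE 0.37, adjusted p = 0.0251). Hoxa6 did not pass when any of 4 libraries was left out (shCdk8 replicates 2 and 3, shMed12 replicates 2 and 3, adjusted p up to 0.0967). Of the rest, Hoxa9 alone had a positive value (0.78, adjusted p = 0.155), and Hoxa2, Hoxa7, Hoxa10 and Hoxa11 ran from -0.80 to -1.41 with adjusted p of 0.0682 to 0.14. The fit without the shRing1b libraries called all 9, with Hoxa9 higher (adjusted p = 0.026) and the other 8 lower, and it also called more of all genes, 8246 against 6747.

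Whether the hairpin differences depended on RA was tested as an interaction. For Med12 the interaction was negative in 8 of the 9 members, Hoxa4 being positive, but 0 passed (5.04% of all genes were called), 2 had an unadjusted p under 0.05, and DESeq2 called 1. The 2 were Hoxa5 (-1.87, SE 0.61, edgeR adjusted p = 0.0827, DESeq2 adjusted p = 0.0148) and Hoxa9 (-2.12, SE 0.95, edgeR adjusted p = 0.230). The fit without the shRing1b libraries called 3 lower: Hoxa3 (-1.16, adjusted p = 0.0423), Hoxa5 (-1.87, adjusted p = 0.0193) and Hoxa10 (-1.33, adjusted p = 0.0163), with 1862 of all genes called against 820. For Cdk8 0 passed (0.0369% of all genes), 1 had an unadjusted p under 0.05, Hoxa4 at 1.31 (SE 0.41), and DESeq2 called 0.

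In mESCs the hairpins against Mediator subunits gave 2 calls with shMed12 and 1 with shCdk8. Few reads limit these counts. In the shNMC, shMed12 and shCdk8 groups Hoxa2 had 7, 8 and 8 reads, and Hoxa6 had 3, 2 and 1. With shMed12 1 member rose and 1 fell, which does not stand apart from the 20.6% and 19.9% of all genes. In these libraries all 8 trophectoderm markers were higher and 8 of 10 pluripotency markers lower. Hoxa9 stood at 0.185, 0.308 and 0.181 CPM with shMed12, above the shNMC libraries at 0.0623, 0 and 0.0737 CPM (29 against 6 reads). Its log2 difference was 2.29 (SE 0.84, edgeR adjusted p = 0.0333), and it did not pass without shMed12 replicate 2 or shNMC replicate 1 or 2 (adjusted p 0.0538 to 0.133). Hoxa4 stood at 0.208, 0.103 and 0.262 CPM, below all 3 shNMC libraries (-1.46, SE 0.35, edgeR adjusted p = 0.0021). Hoxa4 was likewise the 1 member called with shCdk8 (1.42% of all genes were called lower), at 0.138, 0.277 and 0.253 CPM (-1.23, SE 0.34, edgeR adjusted p = 0.0461). That call did not pass when any 1 of the 6 libraries was left out (adjusted p 0.0663 to 0.191). Both comparisons share the shNMC libraries. Untransfected and shNMC mESCs gave 0 calls among the members, where 0.00614% of all genes were called, 0 members had an unadjusted p under 0.05, and DESeq2 called 0. In that comparison the hairpin cannot be told apart from the difference in depth and multiple alignment.

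With shRing1b, 2 of the 3 mESC libraries carried HoxA transcripts above the control level. Together the 9 genes took 10.9 and 13.7 CPM in replicates 1 and 2, but 1.22 CPM in replicate 3, against 2.41, 1.596 and 2.53 CPM in untransfected cells. Replicate 1 lay above every untransfected library for 9 of the 9 members, replicate 2 for 8, and replicate 3 for 1, Hoxa9. The same was not counted over all genes, so these counts are a description. Over all 3 libraries 6 of the 9 were called higher, against 9.68% of all genes, with a median log2 difference of 2.09 against 0.0170. Without replicate 3, which showed little loss of Rnf2, 7 of the 9 were called higher, with 2305 of all genes against 1576.

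The calls took in the 4 genes from Hoxa7 to Hoxa11 and 2 of the 5 from Hoxa2 to Hoxa6. Hoxa9 had 1 read in untransfected cells and 59 with shRing1b (1.04, 0.905 and 0.0891 CPM), so its scaled count was 51.2 times the control (edgeR adjusted p = 0.0018, 95% counting interval 8.84 to 2056). Hoxa10 stood at 2.999, 5.47 and 0.119 CPM against 0.668, 0.519 and 0.743 CPM (log2 difference 2.13, SE 0.61, edgeR adjusted p = 0.0216). Replicate 3 lay below all 3 controls here. Hoxa11 stood at 0.741, 2.82 and 0.0891 CPM against 0.260, 0.160 and 0.149 CPM (2.63, SE 0.77, edgeR adjusted p = 0.0248). Replicate 2 was the highest of all 24 libraries for both Hoxa10 and Hoxa11. Hoxa3 (2.09, 1.30 and 0.119 CPM) gave 2.32 (SE 0.60, edgeR adjusted p = 0.0129), Hoxa5 (0.775, 0.797 and 0.119 CPM) 2.09 (SE 0.64, adjusted p = 0.0313) and Hoxa7 (1.85, 1.38 and 0.148 CPM) 1.63 (SE 0.53, adjusted p = 0.0411). In all 3 the first 2 replicates were above and replicate 3 within the control range. Hoxa2 (0.505, 0.290 and 0.0297 CPM), Hoxa4 (0.809, 0.616 and 0.505 CPM) and Hoxa6 (0.101, 0.109 and 0 CPM) did not pass, and Hoxa4 had the smallest difference (0.31, SE 0.34, edgeR adjusted p = 0.596). In a fit of these 6 libraries alone 3 members could be tested, Hoxa4, Hoxa7 and Hoxa10, and 0 passed. Hoxa7 and Hoxa10, called in the main fit, had edgeR adjusted p of 0.497 and 0.461 there. That fit called 0 of all genes tested, against 2459 in the fit of all 24 libraries, so its 0 is not particular to the members. The shRing1b calls thus rest on a spread estimated over all 24 libraries, and did not hold on that of the compared libraries alone. Leaving out 1 library at a time left 1 to 7 members called. The count was 1 without untransfected replicate 2, 2 without untransfected replicate 3 or shRing1b replicate 2, and 3 without shRing1b replicate 1, and Hoxa9 passed in each. Among the fits with 1 library left out Hoxa7 passed only in that without shRing1b replicate 3, and it did not pass against shNMC mESCs (log2 difference 1.09, adjusted p = 0.104). Hoxa2 did pass against shNMC mESCs (2.34, edgeR adjusted p = 0.0396). Untransfected cells carry no hairpin, so carrying a hairpin and loss of Ring1b cannot be told apart in the main comparison. The shNMC libraries differ from the shRing1b libraries in depth and multiple alignment.

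The shRing1b libraries were set against the level that RA brought. As a percentage of the mean CPM of shNMC cells after RA, replicates 1 and 2 reached 10.6% and 6.10% for Hoxa2, 10.9% and 6.79% for Hoxa3, and 6.78% and 5.16% for Hoxa4. Hoxa5 reached 2.93% and 3.01%, the lowest share of the cluster, and Hoxa6 reached 16.1% and 17.3%. The shares were 36.5% and 27.1% for Hoxa7, 72.3% and 62.7% for Hoxa9, and 67.2% and 123% for Hoxa10. Hoxa11 stood at 111% and 422%. Replicate 3 ran from 0% for Hoxa6, 0.449% for Hoxa5 and 0.626% for Hoxa2 to 13.3% for Hoxa11. In shNMC mESCs the share was 1.15% for Hoxa2, 1.57% for Hoxa3, 4.57% for Hoxa4, 0.657% for Hoxa5 and 3.66% for Hoxa6. It was 10.2% for Hoxa7, 3.14% for Hoxa9, 7.05% for Hoxa10 and 24.7% for Hoxa11. Higher shares at Hoxa7, Hoxa10 and Hoxa11 are therefore not particular to shRing1b. Hoxa9 lay below Hoxa4 and Hoxa6 in shNMC mESCs, but on 6 reads of Hoxa9 and 3 of Hoxa6, so its place is uncertain. Shares were not taken for untransfected cells, the control of the main shRing1b comparison. Each share is divided by a level whose change with RA was smaller at Hoxa7, Hoxa10 and Hoxa11 than at Hoxa2, Hoxa3 and Hoxa5. For shNMC mESCs the share only restates that change. These shares are a description, with no test.

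**Figure D4:**
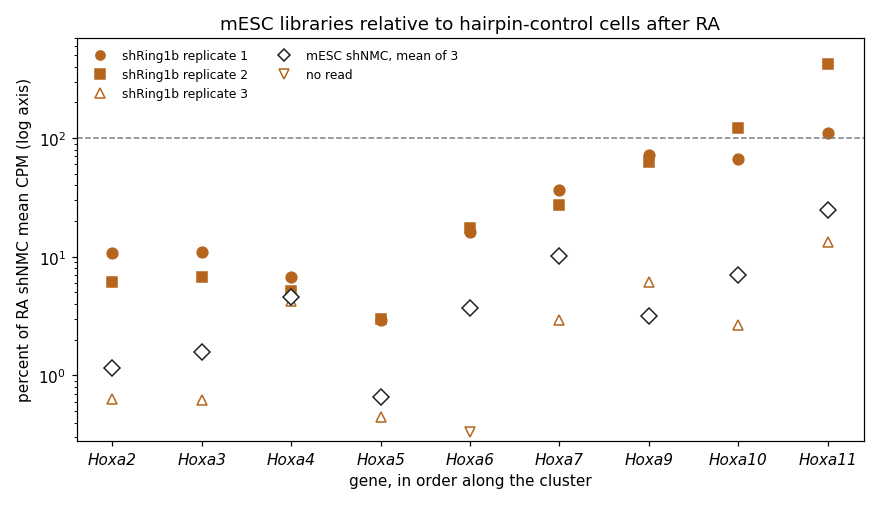
CPM of each HoxA gene in the 3 shRing1b libraries, and the mean of the 3 shNMC mESC libraries, as a percentage of the mean in shNMC cells after RA, on a log axis, with genes in order along the cluster. The dashed line is 100%, which replicate 1 passes at Hoxa11 and replicate 2 at Hoxa10 and Hoxa11.

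Markers of other cell types also differed between groups, but not always where the HoxA genes did. In shMed12 mESCs the 9 HoxA genes summed to 2.08, 1.87 and 1.61 CPM, against 1.87, 2.16 and 2.38 CPM in shNMC mESCs. For the shares of all genes called, see the HoxA counts of each comparison. In the shRing1b libraries all 8 trophectoderm markers were called higher (sums of 85.0, 118 and 68.0 CPM against 22.8 to 34.6 CPM). Endoderm markers summed to 204 CPM in replicate 2, against 47.7 and 22.7 CPM in the others, and fibroblast markers to 119 CPM in replicate 2, against 58.8 and 55.4 CPM. The pluripotency sum was 5727 to 5842 CPM against 5626 to 6230 CPM. With shMed12 after RA, 7 of 8 trophectoderm markers were higher (686 to 888 CPM against 44.8 to 55.4), 5 of 8 fibroblast markers were higher and 1 lower (351 to 395 CPM against 56.6 to 57.9), 4 of 7 endoderm markers were lower (17.1 to 17.9 CPM against 31.1 to 39.4), and 8 of 10 pluripotency markers were lower and 1 higher (1622 to 1752 CPM against 2414 to 2915). With shCdk8 after RA 8 of 10 pluripotency markers were lower and 2 of 8 fibroblast markers higher. In mESCs with shMed12, 8 of 8 trophectoderm markers were higher (588 to 761 CPM against 22.1 to 28.2), 5 of 8 fibroblast markers were higher and 2 lower (347 to 392.4 CPM against 26.8 to 27.5), 3 of 7 endoderm markers were lower (7.44 to 8.91 CPM against 22.8 to 27.01) and 8 of 10 pluripotency markers were lower (3546 to 3846 CPM against 6178 to 6236). With shCdk8 in mESCs 1 fibroblast marker was higher, and 0 of the trophectoderm, endoderm and pluripotency markers passed. Of 5 neural markers tested 1 was higher and 0 lower there, and 1 higher and 2 lower with shMed12 in mESCs and with shRing1b. After RA 1 was higher and 3 lower with shMed12, and 1 higher and 1 lower with shCdk8. With RA in shNMC cells 6 of 8 trophectoderm markers were higher and 9 of 10 pluripotency markers lower. Fibroblast, endoderm and neural markers had 3, 1 and 1 higher and 1, 0 and 1 lower. No marker was at 0 in a whole group, and the part of these cell types in the HoxA values was not tested. In bulk RNA fewer cells that express a gene and less RNA in each cannot be told apart.

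The other Hox clusters were read in the same way. With RA in shNMC cells 27.3% of all genes were called higher and 3925 of 16280 lower. With shMed12 after RA the shares were 21.3% higher and 20.6% lower. With shRing1b 9.68% were higher and 883 of 16280 genes lower. Counts as small as those of HoxC and HoxD with shMed12 did not stand apart from these shares. With RA in shNMC cells, 10 of 10 HoxB genes rose (median log2 change 6.80, with Hoxb1 at 8.22 and Hoxb3 at 7.12), 6 of 8 HoxC genes rose and Hoxc12 fell by 2.11 on the log2 scale, and 8 of 9 HoxD genes rose (median 1.58). With shMed12 after RA, 8 of 10 HoxB genes fell (median -1.04), led by Hoxb13 (-1.97, SE 0.33) and Hoxb7 (-1.53, SE 0.34), while Hoxb1 stood at -0.04 (SE 0.24, edgeR adjusted p = 0.898). As at Hoxa2, the 3′ gene Hoxb1 was close to its shNMC level, at 36.1 ± 3.98 CPM against 37.2 ± 13.6 CPM (SD, n = 3). HoxD had 3 of 9 lower, with Hoxd13 at -1.80 and Hoxd12 at -1.86. HoxC had 1 of 8 higher, Hoxc8 (1.37, SE 0.49), and 1 lower, Hoxc13 (-0.85, SE 0.25). With shRing1b 5 of 10 HoxB, 2 of 8 HoxC and 5 of 9 HoxD genes were higher and 0 lower, with medians of 1.66, 1.67 and 1.61.

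Genes that act with the HoxA proteins or on the cluster were counted from fixed lists. The shares of all genes are those given for the other Hox clusters. The counts of TALE partners with shMed12 did not stand apart from them. Of 9 TALE homeodomain partners, which bind DNA with Hox proteins, 7 rose and 1 fell with RA in shNMC cells, with Meis2 at 3.56 (SE 0.33). With shMed12 after RA 3 were higher, among them Meis3 (1.0, SE 0.26), and 1 lower. Of 15 retinoid genes 9 rose with RA and 1 fell, led by Cyp26a1, which degrades RA (7.85, SE 0.32), and the receptor gene Rarb (4.56, SE 0.20). With shMed12 after RA 6 were higher and 6 lower, Cyp26a1 standing at -0.28 (SE 0.23, edgeR adjusted p = 0.341) and Rarb at -0.43 (SE 0.16, adjusted p = 0.0376). Of 9 regulators of posterior Hox genes 7 were higher and 0 lower with shMed12 after RA (median 1.93), among them Cdx2 at 27.8 ± 8.92 CPM against 1.44 ± 0.73 CPM (4.27, SE 0.42) and Wnt3a (2.35, SE 0.31). In shMed12 against shNMC mESCs, without RA, 7 of the 9 regulators were also higher and 1 lower (median 2.12). There 20.6% of all genes were called higher and 19.9% lower. Cdx2 stood at 5.56 ± 2.67 CPM in shMed12 mESCs against 0.152 ± 0.078 CPM in shNMC mESCs. Cdx2 also marks trophectoderm. Of 11 PRC2 genes 9 fell and 2 rose with RA (median -0.48), with Eed at -1.47 (SE 0.098). With shMed12 after RA 5 were lower and 1 higher (median -0.10).

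The neighbourhood of the cluster did not move as a block. Of 10 genes on either side, 2 rose and 3 fell with RA in shNMC cells (median -0.09). These counts were near the shares of all genes, 27.3% higher and 3925 of 16280 lower. Jazf1 rose (2.19, SE 0.22) and Hibadh fell (-0.86, SE 0.13). With shMed12 after RA 1 was higher and 4 lower, with Creb5 at -1.26 (SE 0.30). With shRing1b 0 were higher and 2 lower. Within the cluster the antisense gene Hoxa11as stood at 0.786, 0.532 and 0.577 CPM with shNMC after RA and 0.154, 0.267 and 0.161 CPM with shMed12 (-1.68, SE 0.53, edgeR adjusted p = 0.014). The libraries were strand-specific, but the strand setting of the counting is not given in the sources used here, so reads of Hoxa11 and Hoxa11as may not be separate.

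Across the 8 groups Hoxa9 and Hoxa11 were the members least like the others. The correlation of a gene's mean log2 CPM over the 8 groups with the mean standardised profile of the 9 was 0.97 to 0.99 for Hoxa2, Hoxa3, Hoxa4, Hoxa5, Hoxa6, Hoxa7 and Hoxa10, 0.89 for Hoxa9 and 0.67 for Hoxa11. Outside the cluster, among 13088 genes with at least 1 CPM in a group, the profiles most like the mean of the members were those of Cxcl14 (r = 0.998 over 8 groups), Myrip (0.996), Adcy5 (0.994), Spdya (0.993), Slc6a11 (0.993) and Thnsl2 (0.991). The 8 points share the same 24 libraries and are split mainly by RA, so these values are a description.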

How the data were processed

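Poly-A RNA of 24 libraries was sequenced strand-specifically, per the labels. The deposited values are the authors' raw read counts per gene symbol. The submitters' processing notes name build mm9, HTSeq 0.6.1p1, STAR 2.3.1z13, bcl2fastq 1.8.4, DESeq2 1.6.3 and SAMtools 1.2. The sources used here give neither their roles nor the annotation. In each library 5 entries named no gene (multiply aligned reads, 20.02% to 49.1%, were the main one) and were left out. Counts were modelled in R 4.3.3 by the robust quasi-likelihood F test of edgeR 4.0.16 after filterByExpr (16280 genes) and TMM scaling. The fit had 1 mean for each group across the 24 libraries, 16 residual degrees of freedom and a biological coefficient of variation of 0.145. Calls need a two-sided, Benjamini-Hochberg adjusted p under 0.05 over all genes tested. CPM use TMM-scaled library sizes. Counting intervals are exact 95% intervals and cover counting error only. DESeq2 1.42.0 was among the alternatives. The code was tested on simulated data. The members, gene lists and tests were chosen with earlier results of these data known. Named genes are the members, the hairpin targets, the 6 most similar profiles and up to 4 genes with the lowest p of each list. Residuals of same-numbered libraries correlated above 0.1 in all 3 pairs for RA shCdk8 with RA shNMC (0.475, 0.287 and 0.537). They did so too for RA shCdk8 with mESC shCdk8 (0.358, 0.169 and 0.371). These libraries were taken as paired only in the alternative fits with a replicate block. The main fit had no block, so its values for these comparisons ignore the pairing.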

Additional observations from a re-analysis of the deposited data

How the results depend on the processing

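The RA counts of members called held within 1.5 times in every alternative run, 8 or 9 in shNMC and 8 in shMed12 when 1 library was left out, and 8 in shCdk8. Leaving out 1 library at a time gave 2 to 4 members for shMed12 after RA (5 with all), 1 to 2 for shMed12 in mESCs, 0 for shCdk8 in mESCs (1 with all), 3 to 4 for shMed12 against shCdk8 after RA, 1 to 7 for shRing1b, and 0 to 1 for the Med12 interaction. With the compared groups alone the counts were 2 for shCdk8 after RA, 9 for shMed12 against shCdk8, 3 for the Med12 interaction, and 0 for shRing1b, where the filter left 3 members to test. With the replicate block on the same libraries they were 5, 9, 4 and 0, and 2 for shCdk8 in mESCs, where 4 were tested. The block changed no other count beyond 1.5 times. Outside the pairs named as paired above, the libraries share only a number. Over all genes the calls for shCdk8 after RA were 1259 with all 24 libraries, 2744 with the compared groups alone and 7910 with the block on these. The same 3 fits gave 596, 2334 and 4116 for shCdk8 in mESCs and 820, 2237 and 3708 for the Med12 interaction. Leaving out the shRing1b libraries, a choice made after seeing the data, gave 1 for shCdk8 after RA, 2 for shCdk8 in mESCs, 9 for shMed12 against shCdk8 and 3 for the Med12 interaction. DESeq2 gave 1 for the Med12 interaction. For shCdk8 in mESCs the count was 0 with no filter on low counts and 0 with total counts in place of TMM, a scaling also added later, which moved the median of all genes by 0.25 with RA in shNMC, 0.15 in shMed12 and 0.23 in shCdk8 cells. The causes were not tested. No call of a member reversed in direction. Few reads limit the mESC values, where 3 reads equal 0.0542 to 0.120 CPM.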
